A study of Mus musculus with 8 samples.

Results

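A set of 9 surface proteins that have been put forward as markers of leukaemic stem cells in chronic myeloid leukaemia (CML) was followed through the sorted bone marrow populations of normal and CML-affected mice. The genes are Il1rap, Il2ra (CD25), Dpp4 (CD26), Cd33, Cd36, Cd44, Cd47, Cd93 and Cd274 (PD-L1), chosen by name, with earlier results of these data known. They are 9 of the 20207 genes in the deposited files, and all 9 were among the 12561 genes whose RPKM (reads per kilobase of exon, scaled to the mapped reads of the library) summed to more than 1 over the 8 libraries.

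CML arises when the BCR-ABL1 fusion kinase is expressed in a haematopoietic stem cell (HSC), and the leukaemic stem cells that result share the immature surface phenotype of normal HSCs. Proteins such as the interleukin-1 receptor accessory protein, the interleukin-2 receptor alpha chain and dipeptidyl peptidase-4 have been proposed, mostly from human marrow, to tell the leukaemic from the normal cells, and CD47 and PD-L1 are ligands through which cells restrain macrophages and T cells. An RNA level is not a surface protein level, and protein was not measured here.

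RNA of 3 sorted populations was sequenced. Stem cells were taken from the KLS+ gate (cKit+Lin-Sca-1+) as cells negative for CD48 and CD135, of which those with CD150 were the long-term (LT) and those without it the short-term (ST) cells, and KLS- cells (cKit+Lin-Sca-1-) were committed progenitors. In the study's methods, CML-affected mice were Tal1-tTA+ TRE-BCR-ABL1+ double transgenics after withdrawal of doxycycline, and normal mice were Tal1-tTA+ littermates, so that both carried the transactivator, whose expression follows Tal1 regulatory sequence and is thereby limited to the cells in which that sequence is active. Normal mice gave 2 LT-HSC libraries, labelled 2 and 6 months of age, and 1 library each of ST-HSCs and KLS- cells, both labelled 2 months. CML-affected mice gave 2 LT-CML libraries and 1 library each of ST-CML and CML-KLS- cells, with no age in the labels. The labels name the strain C57BL/6 for every library, whereas the methods name FVB/N for this model, and the number of mice behind a library is not given in the sources used here. The labels do not say which mice gave each library. The LT-HSC replicates differ in labelled age, and the replicates of both LT populations differ in Y-linked RNA (below). P-values measure only the spread between these libraries, which includes those differences.

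The depth was estimated at 17.8 to 23.9 M reads per library. Markers that the gates require followed them, with Ly6a (Sca-1) at 72.4 to 152 RPKM in the 6 KLS+ libraries and at 8.16 and 11.7 RPKM in KLS- cells, and Slamf1 (CD150) at 10.7 to 35.5 RPKM in LT and at 1.11 and 2.87 RPKM in ST libraries. RNA of the markers that the stem gates exclude was present. Flt3 (CD135) was at 61.6 and 71.6 RPKM and Cd48 at 41.8 and 45.2 RPKM in the ST libraries. In LT-HSCs Flt3 was at 3.95 and 2.52 RPKM, and in LT-CML at 11.9 and 19.2. Cd48 was at 10.45 and 5.17 RPKM in LT-HSCs and at 16.8 and 29.5 in LT-CML. Flt3, Cd48 and Slamf1 were higher in LT-CML without overlap, as were 17.5% of all genes tested, and Ly6a was lower (23.0%). Their part in the LT differences of the members was not tested. Replicate 2 of the LT-HSCs and replicate 2 of the LT-CML stem cells stood apart, since the Y-linked Ddx3y was at 31.0 and 17.5 RPKM there and at most 0.0625 RPKM in the other 6 libraries. The X-linked Xist set these 2 apart from each other, at 0.154 RPKM in the LT-HSC and 13.5 in the LT-CML replicate (12.4 to 30.8 in the other 6). LT-HSC replicate 2 is also the only library labelled 6 months, so that its age and its Y-linked RNA cannot be told apart. The pair with Ddx3y RNA had the highest summed RPKM of the neutrophil markers among KLS+ libraries (4182 and 2733, against 249 to 1549). The makeup of the sums differed. S100a8 was the largest part in LT-HSC replicate 2 (1802 RPKM, with Mpo at 69.9), and Mpo in LT-CML replicate 2 (1291 RPKM, with S100a8 at 588.5). Pooled results that moved by over 1.5 times or lost a call without this pair are given without it as well.

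Cd274 was the 1 member that passed a test across the libraries as reported. It was higher in KLS+ stem cells than in KLS- progenitors, by 2.03 on the log2 scale, and that was the comparison in which it passed. Between CML stem cells and normal HSCs, 0 of the 9 genes passed the test. There Cd274 had the largest positive log2 difference, with 11.1 ± 3.94 RPKM in normal HSCs and 20.4 ± 5.37 in CML stem cells (mean ± SD, n = 3), and Cd93 the largest negative one, with 26.3 ± 5.01 and 18.9 ± 3.49 RPKM. Il1rap, Il2ra and Cd47 had mean RPKM ratios of CML to normal of 1.06, 1.29 and 0.991.

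The sequences before the start sites of Cd274, the gene with the largest differences, and of Il1rap, which was nearly level over the libraries, are shown side by side. They are RefSeq promoter windows of build GRCm38.p6, from 250 bases before to 50 bases after the start, both on the plus strand, at chr19:29367188-29367487 and chr16:26581455-26581754. The build differs from that of the deposited values.
Cd274: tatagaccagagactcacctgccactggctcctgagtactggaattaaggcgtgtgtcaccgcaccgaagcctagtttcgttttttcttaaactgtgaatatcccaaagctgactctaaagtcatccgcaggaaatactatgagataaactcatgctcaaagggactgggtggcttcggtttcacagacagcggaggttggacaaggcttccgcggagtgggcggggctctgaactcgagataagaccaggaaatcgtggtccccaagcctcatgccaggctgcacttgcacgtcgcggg
Il1rap: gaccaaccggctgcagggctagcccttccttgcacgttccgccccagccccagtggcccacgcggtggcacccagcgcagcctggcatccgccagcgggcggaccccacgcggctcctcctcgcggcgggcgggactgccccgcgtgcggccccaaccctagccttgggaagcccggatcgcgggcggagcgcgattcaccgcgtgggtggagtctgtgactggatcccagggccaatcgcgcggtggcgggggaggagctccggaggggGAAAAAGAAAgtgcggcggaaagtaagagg
Capitals in the Il1rap window mark a match, on the reverse strand, to the core of the interferon-stimulated response element (TTTC, 2 bases of any kind, then TTTC), which starts 20 bases after the start site. Of 32851 RefSeq promoters of this length, 3.44% held this motif on either strand, and among the members it was also found in the Dpp4 window. The STAT motif TTCNNNGAA, held by 8.3% of promoters, the E-box CACGTG, held by 7.15%, and the AP-1 motif TGACTCA, held by 5.2%, were searched on both strands too, and neither printed window had a match to any of these. No match says only that these letters are not in this window. G and C made up 52.7% of the Cd274 window and 72.0% of the Il1rap window. The table held windows for 8 of the 9 genes, all but Cd93.

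The members spanned a wide range of expression. Cd47 averaged 94.7 RPKM over the 8 libraries, above 97.2% of all genes, followed by Cd44 (42.3), Cd93 (24.1), Cd274 (12.6), Dpp4 (8.38), Il1rap (4.72), Cd33 (1.03), Cd36 (0.407) and Il2ra (0.364). RPKM is scaled to transcript length, so that these levels can be set side by side. Il2ra, Cd33 and Cd36 rested on about 15 to 104 reads per library, with a counting error of up to 25.4% of the lowest value, whereas each of the other 6 genes had about 182 reads or more. These errors cover counting alone, since reads of amplified cDNA are not independent molecules. The highest library exceeded the lowest by 8.88-fold for Cd274, 6.85-fold for Cd33 and 4.93-fold for Cd36, and by 1.48-fold for Cd47 and 1.55-fold for Il1rap.

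**Figure D1:**
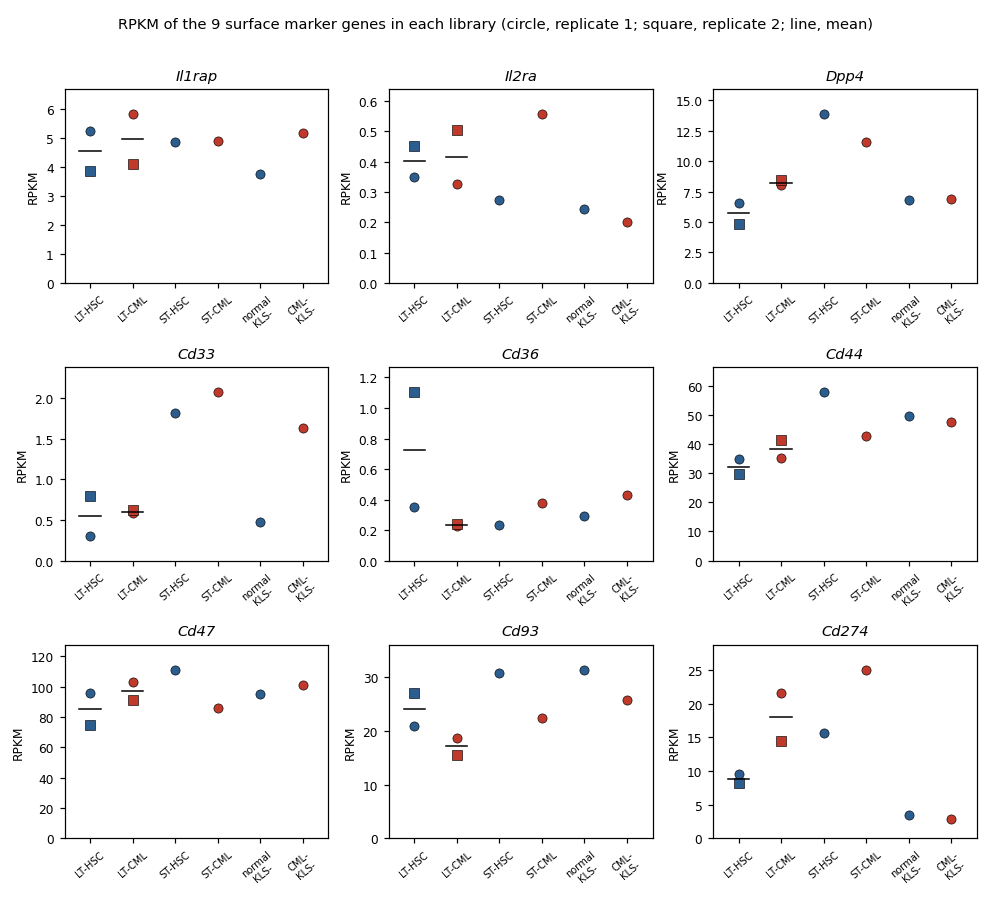
RPKM (vertical axes, from 0) of the 9 genes in each of the 8 libraries, grouped by population on the horizontal axes. Blue is normal and red is CML, circles are replicate 1 and squares replicate 2, and lines are means of 2 replicates. Cd274 lay between 8.16 and 25.02 RPKM in the 6 LT and ST libraries and at 3.42 and 2.82 RPKM in KLS- cells.

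Il1rap encodes the accessory chain that interleukin-1, interleukin-33 and interleukin-36 receptors share and that they need to signal. The gene lies on the plus strand of chromosome 16 (mm9, 26581790 to 26730203). It was at 5.26 and 3.86 RPKM in LT-HSCs, 4.87 in ST-HSCs and 3.74 in normal KLS- cells, and at 5.82 and 4.11 in LT-CML, 4.91 in ST-CML and 5.18 in CML-KLS- cells. The replicates of each LT population were further apart than the LT means (4.56 ± 0.989 for LT-HSCs and 4.96 ± 1.21 for LT-CML, SD, n = 2), and the groups overlapped. Pooled CML stem cells differed from normal HSCs by 0.07 on the log2 scale (95% interval -0.34 to 0.48, adjusted p = 0.919 from limma), an interval that leaves out a 2-fold change in either direction. The partner chain Il1r1, which binds interleukin-1, was highest in the ST libraries (5.32 RPKM in ST-HSCs and 4.71 in ST-CML), against 1.001 to 2.27 RPKM in the LT libraries. Il1rl1, the interleukin-33 receptor, was at 2.17 and 1.75 RPKM in KLS- cells and at most 0.339 RPKM in the stem libraries.

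Il2ra encodes CD25, the alpha chain that raises the affinity of the interleukin-2 receptor. The gene lies on the plus strand of chromosome 2 (11564419 to 11614818). It was at 0.351 and 0.452 RPKM in LT-HSCs, 0.275 in ST-HSCs and 0.245 in normal KLS- cells, and at 0.327 and 0.506 in LT-CML, 0.556 in ST-CML and 0.2004 in CML-KLS- cells. These values correspond to about 18 to 55 reads, and the LT groups overlapped. In the ST pair the ratio was 2.02, without replicates, from about 26 and 53 reads. The pooled log2 difference was 0.10 (95% interval -0.15 to 0.36, adjusted p = 0.772 from limma), on a scale of log2(RPKM + 1) that compresses changes of a gene this low. The signalling chain Il2rg was at 29.8 to 129.9 RPKM, whereas Il2rb was at most 0.284 RPKM in any library.

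Dpp4 encodes CD26, a serine peptidase of the cell surface that trims chemokines such as CXCL12. The gene lies on the minus strand of chromosome 2 (62168130 to 62250288). It was at 6.57 and 4.83 RPKM in LT-HSCs, 13.8 in ST-HSCs and 6.84 in normal KLS- cells, and at 8.035 and 8.44 in LT-CML, 11.6 in ST-CML and 6.896 in CML-KLS- cells. Both LT-CML libraries lay above both LT-HSC libraries, the ST pair had the opposite order, and the KLS- pair was level. The LT difference was 0.48 on the log2 scale (95% interval -0.02 to 0.97, adjusted p = 0.456 from limma) and the pooled one 0.24 (-0.54 to 1.02, adjusted p = 0.836). Without the pair of replicates with Y-linked RNA the pooled difference was 0.0090 (adjusted p = 0.995), and when 1 library was left out it ran from -0.0496, without LT-HSC replicate 2, to 0.624, without ST-HSCs. The LT difference was 0.287 without LT-HSC replicate 2 and 0.181 in a fit with additive terms for population and disease. Its substrate gene Cxcl12 was at 0 to 0.217 RPKM and did not pass the filter on low values.

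Cd33 and Cd36 were the low myeloid members. Cd33 encodes a sialic acid-binding lectin of myeloid cells and lies on the minus strand of chromosome 7 (50782826 to 50788541). It was at 0.302 and 0.7895 RPKM in LT-HSCs, 1.82 in ST-HSCs and 0.476 in normal KLS- cells, and at 0.582 and 0.618 in LT-CML, 2.07 in ST-CML and 1.62 in CML-KLS- cells. The 2 ST libraries and the CML-KLS- library were high and the other 5 low. The KLS- pair differed 3.41-fold, from about 25 and 74 reads without replicates, which was 0.83 on the log2(RPKM + 1) scale. The neutrophil markers also differed between those 2 libraries (9 genes, none at 0 throughout, summed RPKM of 9493 and 15565), mostly from Mpo (7891 and 13120 RPKM). The part of these markers in the Cd33 difference was not tested. Between CML stem cells and normal HSCs the log2 difference was 0.09 (95% interval -0.71 to 0.88, adjusted p = 0.948 from limma), and 0.203 without the pair of replicates with Y-linked RNA.

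Cd36 encodes a class B scavenger receptor that takes up fatty acids and lies on the minus strand of chromosome 5 (17287508 to 17394777). It was at 0.349 and 1.10 RPKM in LT-HSCs, 0.235 in ST-HSCs and 0.2905 in normal KLS- cells, and at 0.224 and 0.242 in LT-CML, 0.379 in ST-CML and 0.429 in CML-KLS- cells. A single library, LT-HSC replicate 2, was high and the other 7 lay at 0.224 to 0.429 RPKM. That library also had the highest sums of neutrophil (4182 RPKM) and erythroid markers (128 RPKM, where the other 5 lay at 7.21 to 99.7) among the 6 KLS+ libraries, with the alpha-globin genes Hba-a1 and Hba-a2 at 0 in all libraries, and their part in its Cd36 level was not tested. It is also the only library labelled 6 months, and the part of age was not tested either. The pooled log2 difference of -0.25 (95% interval -0.71 to 0.21, adjusted p = 0.691 from limma) became 0.0096 when both replicates with Y-linked RNA were left out.

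Cd44 encodes the receptor for hyaluronan, an adhesion protein of the marrow niche, and lies on the minus strand of chromosome 2 (102651298 to 102741822). It was at 34.85 and 29.6 RPKM in LT-HSCs, 57.8 in ST-HSCs and 49.6 in normal KLS- cells, and at 35.0 and 41.3 in LT-CML, 42.7 in ST-CML and 47.4 in CML-KLS- cells. LT libraries were lowest in both disease states. Both LT-CML values exceeded both LT-HSC values, while the ST pair was lower in CML, so that the pooled difference was 0.02 on the log2 scale (95% interval -0.55 to 0.58, adjusted p = 0.989 from limma), and -0.211 without the pair of replicates with Y-linked RNA. The KLS- pair, which is not in the pooled comparison, was also lower in CML. The annotation lists 14 transcripts of Cd44, and a gene-level value does not separate the standard from the variant forms.

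Cd93 encodes a C-type lectin-like receptor first described on phagocytes and endothelium, and lies on the minus strand of chromosome 2 (148262376 to 148269299). It was at 20.9 and 27.15 RPKM in LT-HSCs, 30.8 in ST-HSCs and 31.4 in normal KLS- cells, and at 18.7 and 15.5 in LT-CML, 22.5 in ST-CML and 25.7 in CML-KLS- cells. The CML library was the lower in each population, and in LT cells the groups did not overlap. ST-CML still exceeded LT-HSC replicate 1. The pooled log2 difference was -0.45 (standard error 0.20, 95% interval -0.91 to 0.0026), with an adjusted p of 0.402 from limma and 0.0510 before adjustment. It was -0.293 (adjusted p = 0.687 from limma) without the pair of replicates with Y-linked RNA. Over all 14 alternatives it ran from -0.602 to -0.293, with adjusted p-values from limma of 0.0929 to 0.687. An exact two-sided permutation test of the mean RPKM gave p = 0.2, where 3 against 3 libraries cannot give less than 0.1. Endothelial markers (5 genes) summed to 33.2 to 42.4 RPKM in CML stem cells and 33.4 to 56.8 in normal HSCs, with Cdh5 at most 0.0276 RPKM, and their part in the Cd93 levels was not tested.

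Cd47 encodes the ligand of SIRPα that restrains phagocytosis, and lies on the plus strand of chromosome 16 (49855731 to 49915123). It was at 95.97 and 74.9 RPKM in LT-HSCs, 111 in ST-HSCs and 95.4 in normal KLS- cells, and at 103 and 90.9 in LT-CML, 85.6 in ST-CML and 101.0 in CML-KLS- cells. The CML stem values lay inside the range of the normal HSC values. The pooled log2 difference was 0.0013 (95% interval -0.40 to 0.40, adjusted p = 0.999 from limma), and -0.14 without the pair of replicates with Y-linked RNA. Sirpa, the receptor on the phagocyte side, was at 3.54 to 5.21 RPKM in the stem libraries, and in normal and CML-KLS- cells at 6.36 and 10.6 RPKM.

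Cd274 encodes PD-L1, the ligand through which cells engage PD-1 on T cells, and lies on the plus strand of chromosome 19 (29441945 to 29462585). It was at 9.56 and 8.16 RPKM in LT-HSCs, 15.6 in ST-HSCs and 3.42 in normal KLS- cells, and at 21.65 and 14.5 in LT-CML, 25.02 in ST-CML and 2.82 in CML-KLS- cells. ST libraries exceeded LT libraries of the same disease state, both LT-CML libraries exceeded both LT-HSC libraries, and the KLS- libraries were lowest. The mean ratio of CML to normal was 2.04 in LT cells and 1.61 in ST cells, and 0.824 in KLS- cells. Pooled groups overlapped, because ST-HSCs (15.6) lay above LT-CML replicate 2 (14.5).

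In the pooled comparison the log2 difference of Cd274 was 0.84 (standard error 0.27, 95% interval 0.20 to 1.48), with an adjusted p of 0.244 from limma and 0.0169 before adjustment. It lay above 98.1% of the differences of all genes tested. In LT cells alone the difference was 0.93 (standard error 0.24, 95% interval 0.37 to 1.49, adjusted p = 0.134 from limma). When the fit had a term for the LT or ST population, the pooled difference kept its size and passed the threshold (adjusted p = 0.0384), and over all 14 alternatives the adjusted p ran from 0.0384 to 0.552. Without the pair of replicates with Y-linked RNA the log2 difference was 0.88 (adjusted p = 0.308 from limma). The exact two-sided permutation test of mean RPKM gave p = 0.2.

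Among the 9 genes, 0 were called in the pooled comparison, where 2.34% of the 12561 genes tested were called (adjusted p under 0.05), and 1 had an unadjusted p under 0.05, where 12.5% of all genes did. Pooled groups were separate for 0 of 9, against 18.3% of all genes. In LT cells 0 of 9 were called, against 1.73%, and the LT groups did not overlap for 5 of 9, against 40.5% of all genes with 2 libraries a side. Dpp4, Cd44 and Cd274 were the higher in LT-CML (3 of 9, against 17.5% of genes) and Cd36 and Cd93 the lower (2 of 9, against 23.0%). The median log2 difference of the members was 0.07 in the pooled comparison (-0.04 over all genes tested) and 0.10 in LT cells (-0.01). In the pairs without replicates, 0 of 9 passed a 2-fold difference on the log2(RPKM + 1) scale, against 4.04% of genes in ST cells and 3.24% in KLS- cells. That scale compresses changes of low genes such as Cd33, which reached 1.58 in KLS- cells on log2(RPKM + 0.1).

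**Figure D2:**
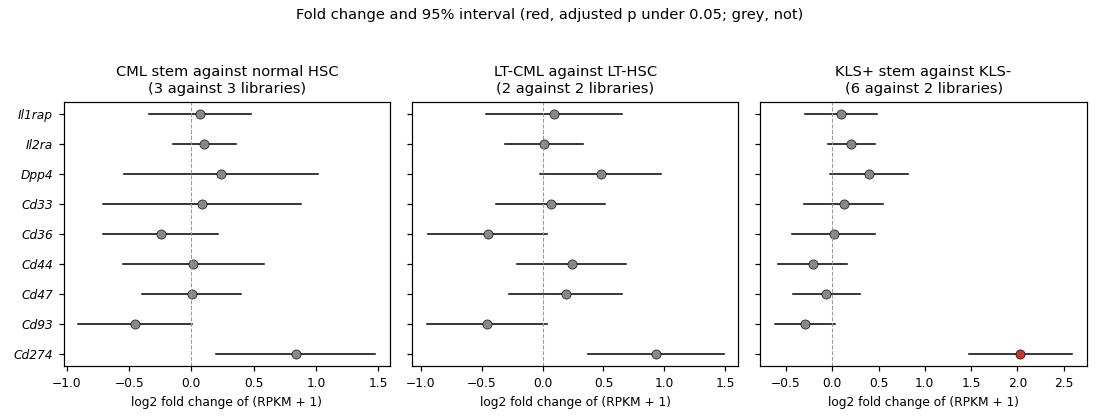
Log2 fold change of RPKM + 1 (horizontal axes) with its 95% interval for the 9 genes in 3 comparisons from limma. Red marks an adjusted p under 0.05, which Cd274 alone reached, at 2.03 in stem cells against KLS- progenitors.

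Against KLS- progenitors, with disease as a term of the fit, Cd274 was higher in stem cells by 2.03 on the log2 scale (standard error 0.25, 95% interval 1.47 to 2.59, adjusted p = 0.00033 from limma). It was called in all 15 alternatives, with differences between 1.51 and 2.55. This was 1 call among 9 members, in a comparison that called 48.7% of all genes. The other 8 genes had adjusted p-values of at least 0.106, the lowest for Dpp4 (0.39, 95% interval -0.03 to 0.81), and Dpp4 passed in 3 of 15 alternatives. All 6 stem libraries lay above both KLS- libraries for Il2ra and Cd274, against 27.7% of genes in that direction and 49.6% in either. Il2ra was close to overlap, with 0.275 RPKM in ST-HSCs and 0.245 in normal KLS- cells, about 26 and 25 reads. For Cd47 the direction depended on scaling, with -0.06 as deposited, 0.04 after upper-quartile scaling and 0.41 after quantile normalization (adjusted p = 0.0234 from limma, in a range of 0.0234 to 0.981 over 15 alternatives).

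Monocyte and macrophage markers (8 genes, none at 0 throughout) summed to 885 and 1187 RPKM in KLS- cells, where Cd274 was lowest, and to 17.8 to 196 RPKM in the stem libraries. The KLS- sums came mostly from Ly6c2 (785 and 1039 RPKM). Dendritic cell markers (5 genes) summed to 13.6 to 73.1 RPKM in CML stem cells and 4.73 to 63.0 in normal HSCs, mostly from Flt3, with Itgax at most 0.126 RPKM. Basophil and mast cell markers (8 genes) summed to 6.07 to 52.7 RPKM in CML stem cells and 5.67 to 15.2 in normal HSCs, T and NK cell markers (8 genes) to 2.09 to 3.64 and 3.06 to 4.25, and B cell markers (7 genes) to 31.4 to 62.4 and 37.3 to 42.1. Their part in the Cd274 levels was not tested. In sorted bulk populations, a smaller share of expressing cells and less RNA per cell cannot be told apart.

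LT and ST libraries did not overlap for Dpp4, Cd33 and Cd44, each higher in ST cells, which is 3 of 9 genes against 11.3% of all genes in that direction and 24.2% in either, and this difference was not tested. The lowest ST value and the highest LT value were 11.6 and 8.44 RPKM for Dpp4, 1.82 and 0.7895 for Cd33, and 42.7 and 41.3 for Cd44. Cd44 was thus close to overlap.

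The disease difference in stem cells was compared with that in KLS- cells by an interaction term. It was 1.05 for Cd274 (standard error 0.36), with an adjusted p of 0.9996 from limma and 0.0196 before adjustment, and -0.74 for Cd33 (standard error 0.29), with 0.9996 and 0.0324. None of the 9 was called, against 0.0717% of all genes, and 2 of 9 had an unadjusted p under 0.05, against 3.79%. Each rested on 1 KLS- library per disease state.

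Pdcd1lg2, which encodes PD-L2, the other PD-1 ligand, was at 0.558 and 1.39 RPKM in LT-HSCs, 1.71 in ST-HSCs and 0.0723 in normal KLS- cells, and at 2.45 and 1.43 in LT-CML, 4.37 in ST-CML and 0.0493 in CML-KLS- cells. Like Cd274 it was higher in each CML stem library than in its normal counterparts and lowest in KLS- cells, with a pooled log2 difference of 0.72 (95% interval -0.02 to 1.46, adjusted p = 0.416 from limma) and a stem against KLS- difference of 1.5015 (adjusted p = 0.00115). Irf1, an interferon-induced transcription factor that can act on Cd274, had a difference of the opposite sign. It was at 71.6, 68.3 and 71.4 RPKM in the 3 normal HSC libraries and 37.8, 41.0 and 57.4 in the 3 CML stem libraries, with no overlap (log2 difference -0.65, adjusted p = 0.136 from limma). Pdcd1, the receptor, was at most 0.437 RPKM. Of 15 tested genes of the PD-L1 and B7 list, 0 were called between CML stem cells and normal HSCs (median -0.16, against -0.04 over all genes), and 11 were called higher and 2 lower in stem cells than in KLS- progenitors, where 26.5% of all genes were called higher and 22.2% lower.

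**Figure D3:**
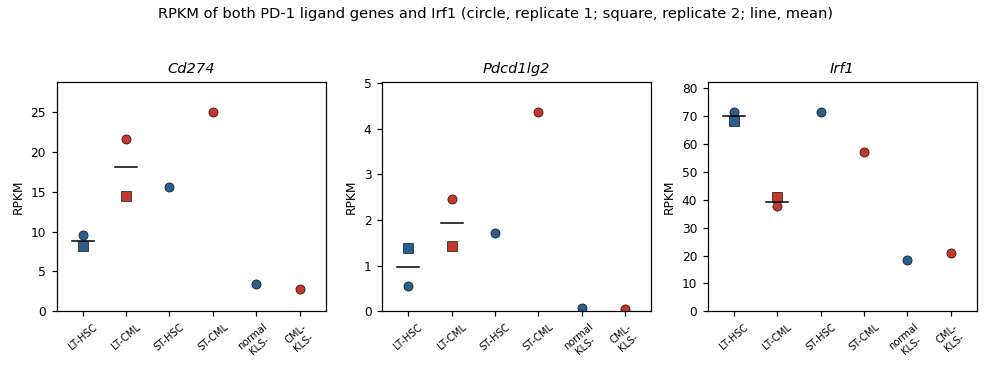
RPKM (vertical axes, from 0) of Cd274, Pdcd1lg2 and Irf1 in the 8 libraries. Blue is normal and red is CML, circles and squares are replicates 1 and 2, and lines are means of 2 replicates. Irf1 lay at 68.3 to 71.6 RPKM in normal HSCs and at 37.8 to 57.4 RPKM in CML stem cells.

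Of 130 tested genes on the partner lists of all 9 members, 4 (3.08%) were called in the pooled comparison and 3 (2.31%) in LT cells, shares near those of all genes (2.34% and 1.73%). The called genes are described one by one, and their number is not a result about the lists. Irak4, the kinase that interleukin-1 receptors engage through MyD88, rose from 8.40 ± 1.81 RPKM in normal HSCs to 20.7 ± 1.68 in CML stem cells (SD, n = 3, log2 difference 1.22, standard error 0.17, adjusted p = 0.0126 from limma). Its values were 7.54, 7.175 and 10.5 RPKM in normal HSCs and 20.45, 19.2 and 22.5 in CML stem cells, without overlap, and it was at 13.1 RPKM in normal and 23.2 in CML-KLS- cells. The adaptor Myd88 was at 15.5 to 20.1 RPKM in normal HSCs and 18.65 to 22.6 in CML stem cells (adjusted p = 0.680 from limma). Irak4 was the 1 call among 18 tested genes of the interleukin-1 list, both pooled and in LT cells (log2 difference 1.32, adjusted p = 0.0168 from limma). The pooled call was lost without LT-HSC replicate 1 (adjusted p = 0.0708) and without LT-CML replicate 1 (0.0659), or without the pair of replicates with Y-linked RNA (0.13), and the LT call without any of the 4 LT libraries.

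Cish, a feedback inhibitor induced by cytokine receptors through STAT5, rose from 10.6 ± 2.27 to 24.0 ± 4.62 RPKM (SD, n = 3, log2 difference 1.11, standard error 0.20, adjusted p = 0.0366 from limma). It was the 1 call among 14 tested genes of the interleukin-2 list, and every omission of 1 of the 6 libraries ended it (adjusted p of 0.0526 to 0.143), as did that of the pair of replicates with Y-linked RNA (0.103). In LT cells its adjusted p was 0.119. Cish was at 0.640 RPKM in normal and 1.84 in CML-KLS- cells, and 9 of the 14 genes, Cish among them, were called higher in stem cells than in KLS- cells (26.5% of all genes) and 0 lower (22.2%). The lists together were less one-sided. Of all 130 tested partner genes, 44 were called higher and 30 lower in stem cells than in KLS- cells (56.9% called, against 48.7% of all genes).

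Cxcl10, an interferon-induced chemokine that DPP4 truncates, fell from 3.51 ± 0.817 to 0.471 ± 0.233 RPKM (SD, n = 3, log2 difference -1.61, standard error 0.19, adjusted p = 0.00501 from limma). It was at 3.02, 4.45 and 3.05 RPKM in normal HSCs and 0.591, 0.620 and 0.202 in CML stem cells, and also lower in CML-KLS- than in normal KLS- cells (0.264 and 2.46 RPKM). The call held in each omission of 1 library and was lost only without the pair of replicates with Y-linked RNA (adjusted p = 0.0687), among 14 alternatives. In LT cells the log2 difference was -1.54 (adjusted p = 0.0136 from limma), lost without LT-HSC replicate 2 (0.0866), LT-CML replicate 1 (0.203) or LT-CML replicate 2 (0.213). Of 10 tested genes of the DPP4 list, Cxcl10 was the 1 call in the pooled comparison (2.34% of all genes), and 6 were called lower and 0 higher in stem cells than in KLS- cells (22.2% and 26.5% of all genes).

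Clec14a, a C-type lectin of the same family as CD93, rose from 0.167 ± 0.150 to 1.84 ± 0.697 RPKM (SD, n = 3, log2 difference 1.26, standard error 0.20, adjusted p = 0.0197 from limma). It was the 1 call among 8 tested genes of the CD93 list, opposite in direction to Cd93 itself, and the omission of any single library but LT-CML replicate 2 ended the call (adjusted p of 0.0507 to 0.0928), as did that of the pair of replicates with Y-linked RNA (0.0627). Itgb3, the integrin beta chain that associates with CD47 and marks platelets, passed in the LT comparison and not in the pooled one, and rose in LT cells from 4.68 and 5.62 RPKM to 18.2 and 18.65 RPKM (log2 difference 1.66, standard error 0.20, adjusted p = 0.0095 from limma). Megakaryocyte and platelet markers (7 genes) summed to 399 and 415 RPKM in LT-HSCs and 472 and 278 in LT-CML, mostly from Pf4. Single genes of the list differed in direction. Itga2b was at 26.7 and 15.1 RPKM in LT-HSCs and higher in LT-CML, at 51.0 and 38.4, and Gp1bb was higher too. Ppbp was lower in LT-CML (4.04 and 4.73 RPKM, then 1.16 and 1.78), as was Gp6, and Pf4, Gp9 and Vwf overlapped. The part of these markers in the rise was not tested. The Itgb3 call was lost without any of the 4 LT libraries, and the pooled adjusted p was 0.376, or 0.0021 when the fit had a term for the LT or ST population. With no filter on low values the LT calls of Irak4, Cxcl10 and Itgb3 and the pooled calls of Cish and Clec14a were lost as well (adjusted p of 0.0695 to 0.268).

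**Figure D4:**
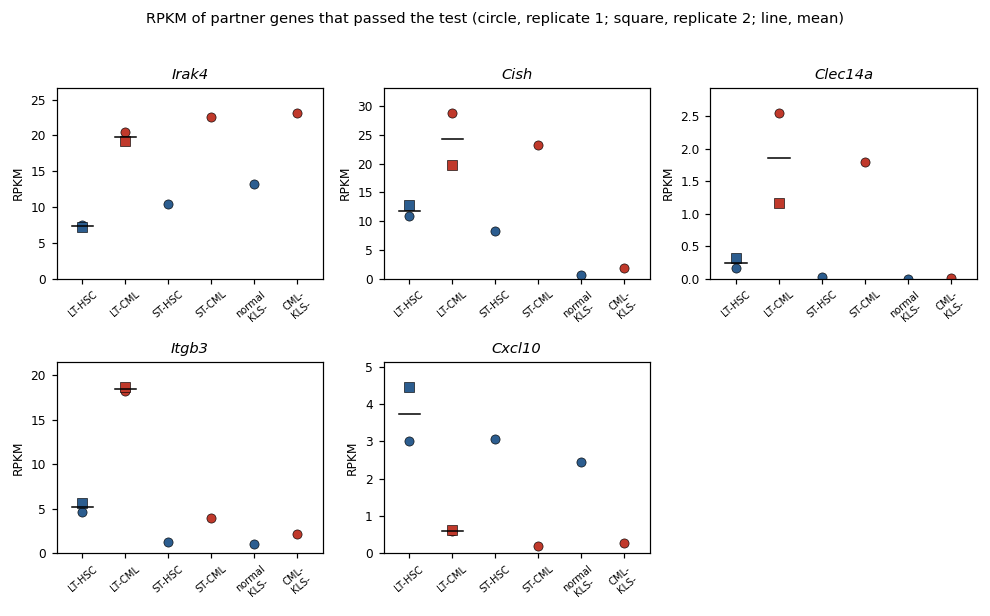
RPKM (vertical axes, from 0) of the 5 partner genes called in the pooled or the LT comparison, in the 8 libraries. Blue is normal and red is CML, circles and squares are replicates 1 and 2, and lines are means of 2 replicates. Cxcl10 lay at 3.02 to 4.45 RPKM in normal HSCs and at 0.202 to 0.620 RPKM in CML stem cells.

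The remaining lists gave 0 calls between CML stem cells and normal HSCs, pooled or in LT cells. They were the sialic acid-binding lectins around Cd33 (11 tested genes), the scavenger receptors and fatty acid genes around Cd36 (20) and the ligands and linkers of Cd44 (21), and the list around CD47 (15) had 0 pooled calls and only Itgb3 in LT cells. Their abundant members include Ptpn6, the phosphatase that sialic acid-binding lectins recruit (log2 difference 0.14, adjusted p = 0.835 from limma), Fabp5, a fatty acid-binding protein (0.06, 0.960), and Srgn, the proteoglycan serglycin (-0.25, 0.543). Calr, the calreticulin that counters CD47 as a signal for uptake, was at 158 to 220 RPKM in the stem libraries and at 815 and 775 RPKM in KLS- cells, and was called lower in stem cells by 2.04 on the log2 scale (adjusted p = 2.39e-05 from limma). Mmrn1, of the multimerin family that holds a ligand of CD93, was at 23.0 to 81.9 RPKM in the stem libraries and at 0.927 and 0.678 RPKM in KLS- cells (log2 difference 4.54, adjusted p = 2.04e-06 from limma). Between CML stem cells and normal HSCs, the most abundant genes of the lists (Sigirr, Myd88, Il2rg, Jak1, Dpp3, Ada, Ptpn6, St3gal4, Fabp5, Acsl5, Srgn, Mif, Calr, Pdia3, Mmrn1, Ifngr1 and Irf1) had adjusted p-values from 0.136 (Irf1) to 0.995 (Il2rg). At unadjusted p under 0.05, 12.5% of all genes passed in the pooled and 11.6% in the LT comparison.

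Over the 8 libraries, the genes whose log2(RPKM + 1) was most like that of Cd274, among genes of at least 1 RPKM on average, were Ptpn22, a phosphatase of lymphocyte signalling (Pearson's r = 0.993), Abcd4 (0.993) and Lime1 (0.992). Ptpn22 was at 13.1 to 17.9 RPKM in normal HSCs, 17.35 to 22.05 in CML stem cells and at most 10.2 in KLS- cells. For Cd36 the nearest were Alas2, an enzyme of haem synthesis in erythroid cells (0.974), Pir (0.930) and C5ar1, a receptor of phagocytes (0.929), and Alas2 was at 16.1 RPKM in LT-HSC replicate 2 and at most 2.13 RPKM elsewhere. For Cd93 they were Rps3 (0.974), Fis1 (0.955) and Ccdc28b (0.940). The nearest genes of the others were Dgcr2 for Il1rap (0.967), Adam28 for Il2ra (0.913), Zfp62 for Dpp4 (0.958), Comt1 for Cd33 (0.929), Usp11 for Cd44 (0.9752) and Gmfb for Cd47 (0.967). These are descriptions over 8 libraries that share populations, depth and protocol, and the highest of many coefficients. Among the members themselves the highest coefficient was 0.68, for Dpp4 and Cd44.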

How the data were processed

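LT, ST and KLS- cells sorted from bone marrow were sequenced in 8 libraries, made with an ultra-low-input kit. The authors mapped the reads to mm9 (NCBI Build 37) and deposited RPKM values per gene. The annotation and counting rule are not given in the sources used here, and the kit does not mark strand, so that overlapping genes on opposite strands cannot be told apart. RPKM are not counts, and no count-based test was used. Depth was estimated from the steps of low values (66.8% of 6245 low genes lay on whole multiples, within 0.02 reads plus 0.0015 of the multiple), with GENCODE M1 exon lengths on the same build, which also gave the coordinates.

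Groups were compared with limma 3.58.1 in R 4.3.3 (intensity trend, two-sided) on log2(RPKM + 1) for the 12561 genes whose RPKM summed to more than 1, and p-values adjusted over all of them after Benjamini and Hochberg were called under 0.05. The pooled comparison used the 6 stem libraries. The LT comparison used all 8 libraries with 1 mean per population, 6 populations in all, and 2 residual degrees of freedom, so that the spread came from the LT replicates. The comparison with KLS- cells had population and disease as terms, and the interaction added a disease term for KLS- cells. Pairs without replicates were given as differences. Single members were also compared by an exact permutation test. The fits were also run on simulated data, in which all populations shared 1 mean per gene apart from the added changes. No conclusion is drawn from that run. Python 3.11 was used for the rest.

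Named genes were the 9 members and, from each partner list, every gene called in a CML against normal comparison (up to 3 per direction) and the 2 with the highest mean RPKM, with the 3 genes most like each member. Il1r1, Il1rl1, Il2rb, Il2rg, Cxcl12, Sirpa, Pdcd1 and Pdcd1lg2 were added after their values were seen, and a result for another gene is not reported here. Genes of the sorting gates, single genes of the marker lists, the Y-linked Ddx3y and the X-linked Xist were named outside this rule, as checks of the libraries, also after their values were seen. The members and lists were chosen with earlier results of these data known. Promoter windows came from RefSeq (GRCm38.p6). Alternatives covered the pseudocount (0.1), filters, scaling, the terms of each fit and the omission of libraries, of which 1, without both replicates with Y-linked RNA, was chosen after seeing the data.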

Additional observations from a re-analysis of the deposited data

Results flagged for a closer look

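The change of Cd274 with disease went one way in stem cells and the other way in KLS- progenitors. Both LT-CML libraries lay above both LT-HSC libraries and ST-CML above ST-HSC, whereas CML-KLS- cells lay below normal KLS- cells (2.82 and 3.42 RPKM). The interaction term was 1.05 on the log2 scale (standard error 0.36, 95% interval 0.22 to 1.88), with an adjusted p of 0.9996 from limma and 0.0196 before adjustment. It lay between 0.865 and 1.18 over 12 alternatives, with adjusted p-values of 0.692 to 1, and the KLS- side had 1 library per disease state.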

How the results depend on the processing

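Of 460 values of the 9 members under the alternatives to the 4 tested comparisons, 412 kept their direction and side of the threshold and 43 changed sign, with or without passing it. The other 5 kept their direction and passed the threshold where the reported value did not. For each of the latter the cause was not tested. They were Cd274 in the pooled comparison with a term for the LT or ST population (0.837, adjusted p = 0.0384 from limma), Dpp4 against KLS- cells after upper-quartile scaling (0.485), without LT-HSC replicate 2 (0.461) and without both replicates with Y-linked RNA (0.433), and Cd93 against KLS- cells without LT-HSC replicate 2 (-0.332).

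The number of genes called in the pooled comparison, 294, was 193 with no filter, 543 with that term, 776 with additive terms over all 8 libraries and 38 without both replicates with Y-linked RNA, and 115 to 217 when 1 library was left out. In LT cells, 217 became 776 with additive terms, and 0 with no filter, where limma gave 1765 genes an unadjusted p under 0.05, and 6 to 74 when 1 library was left out. Against KLS- cells, 6123 ranged from 3178 to 6338 when 1 library was left out and was 6494 without both of those replicates, and no member but Dpp4, Cd93, Cd47 and Cd274 was called there under any alternative. The interaction called 9 genes, and 2 with a pseudocount of 0.1, 5 with no filter, 1 with a mean of at least 1 RPKM, 1 after upper-quartile scaling, 1 with 1 mean for LT and ST, and 0 to 7 when 1 library was left out (446 genes at an unadjusted p under 0.05 in the fit with 0). With a pseudocount of 0.1, 1309 genes passed the 2-fold difference in ST cells and 1156 in KLS- cells, the member Cd33 among the latter (1.58 on the log2 scale).

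Of the values that changed sign, only Cd47 after quantile normalization against KLS- cells passed the threshold. In the pooled comparison they were, without both replicates with Y-linked RNA, Cd36 (0.00964, against -0.396 to -0.0118 when 1 library was left out), Cd44 (-0.211) and Cd47 (-0.136), and with additive terms Cd44 (-0.00382, also in LT cells). Against KLS- cells they were, after quantile normalization, Il1rap (-0.0445), Il2ra (-0.0251), Cd33 (-0.167), Cd36 (-0.255), Cd44 (0.108) and Cd47 (0.408), with Cd33 at -0.0286 without a disease term, Cd36 at -0.0307 with a pseudocount of 0.1 and -0.0689 without both replicates with Y-linked RNA, and Cd47 at 0.0413 after upper-quartile scaling and 0.00414 without both of those replicates. In the interaction Cd47 was 0.0544 after quantile normalization.

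When 1 library was left out, log2 differences that changed sign ran, in the pooled comparison, from -0.0383 to 0.173 for Il1rap, -0.0496 to 0.624 for Dpp4, -0.227 to 0.381 for Cd33, -0.179 to 0.292 for Cd44 and -0.151 to 0.13 for Cd47. In LT cells they ran from -0.112 to 0.305 for Il1rap, -0.0777 to 0.105 for Il2ra and -0.161 to 0.297 for Cd33. Against KLS- cells they ran from -0.0573 to 0.255 for Il1rap, -0.248 to 0.495 for Cd33, -0.183 to 0.211 for Cd36 and -0.193 to 0.0691 for Cd47. In the interaction they ran from -0.0508 to 0.301 for Cd44 and -0.234 to 0.107 for Cd47.

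No paired analysis was possible because only the labels of the LT-CML libraries carry replicate numbers. The filter on a mean of 1 RPKM removed Il2ra and Cd36, which gave no value there, and the interaction has no value without a KLS- library. The depth behind Il2ra, Cd33 and Cd36 limits what can be seen of their differences.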
